A study of Mus musculus with 7 samples.

Results

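Basement membranes are thin sheets of matrix that separate endothelium, epithelium, muscle and nerve from the tissue around them. Laminins are trimers of 1 α, 1 β and 1 γ chain that assemble into the sheet's cell-facing network. Nidogens bridge that network to collagen IV, the heparan sulfate proteoglycans perlecan and agrin link it to cell receptors and growth factors, and Sparc is a secreted collagen-binding protein. In lymph nodes, such matrix surrounds blood and lymphatic vessels and coats the fibres of the reticular network.

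The 10 genes described here were taken by symbol from the deposited expression table of 21176 genes: the laminin chain genes Lama4, Lama5, Lamb1, Lamb2 and Lamc1, the nidogen genes Nid1 and Nid2, Hspg2 (perlecan), Agrn (agrin) and Sparc. Each symbol matched 1 row. They were chosen by family, with earlier results of these data known. RNA had been sequenced from follicular dendritic cells (FDCs), antigen-holding stromal cells of the B-cell follicle, isolated from popliteal lymph nodes by flow cytometry. The groups were 4 wild-type (WT) samples and 3 samples labelled as a knockout (KO) of Ngfr, the gene of the neurotrophin receptor p75. All animals were male, 8 to 12 weeks old and not immunized, and each sample pooled nodes of several animals. The strain, the knockout allele and the cells in which it acts are not given in the sources used here.

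Libraries held 17244925 to 21538400 reads, with the 3 Ngfr KO libraries all deeper than the 4 WT libraries. Values are normalised signal, on which a value of 1 was worth 230 to 295 reads. The targeted gene Ngfr had values of 0.377, 0.677, 1.30 and 1.14 in WT replicates 1 to 4 and 0.305, 0.353 and 0.184 in Ngfr KO replicates 1 to 3. The groups were apart, though WT replicate 1 lay close to the Ngfr KO samples. Ngfr was below the filter on low values, still had 46 to 104 reads in Ngfr KO and was not called by edgeR (log2 change -1.55, adjusted p = 0.0574). The FDC label was checked against 15 marker genes. All 15 were detected, and 13 were called higher in Ngfr KO (limma adjusted p under 0.05 over all genes, as throughout) and 0 lower.

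A gene was tested by limma, on log2(value + 1), when its value reached 1 in at least 3 samples. Of the 10 genes, 9 passed. In Ngfr KO, 5 were called lower, namely Agrn, Lama4, Nid1, Lamb2 and Hspg2, and 0 higher. Lamc1, Lama5, Lamb1 and Sparc were not called, and Nid2 was below the filter. Over all 8326 genes tested, 15.8% were called lower and 18.3% higher. In those 5 genes and in Nid2 the highest Ngfr KO sample was under the lowest WT sample, which held for 18.3% of all genes tested. Hspg2 passed the filter through its WT samples alone. Agrn and Lamb2 reached a value of 1 in all 4 WT samples but in only 1 Ngfr KO sample, and Lama4 in 2. Their passing also rested on WT, so the count called lower shows no more than these genes' own values. A quasi-likelihood test on the recovered reads (edgeR), which kept all 10 genes, called only Agrn and Hspg2 lower and 0 higher, against 6.55% and 8.67% of the genes it tested. Limma without a filter called the same 2 lower and 0 higher, against 4.73% and 5.31% of all genes.

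Long transcripts as a class were lower in the Ngfr KO libraries, which touches all of these counts. Among 1240 tested genes with a transcript of at least 6 kb, 33% were called lower and the median log2 change was -0.30. Among 2408 genes under 2 kb, the median was 0.19. Of the tested members, Lama4, Lama5, Lamc1, Nid1, Hspg2 and Agrn are in the longest class, Lamb1 and Lamb2 lie between 4 and 6 kb, and Sparc is shorter. After each sample's trend with transcript length was removed, Agrn, Lama4 and Nid1 were still called lower and Lama5 was called higher, against backgrounds of 13.3% lower and 16.2% higher. Lamb2 and Hspg2 were no longer called.

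**Figure D1:**
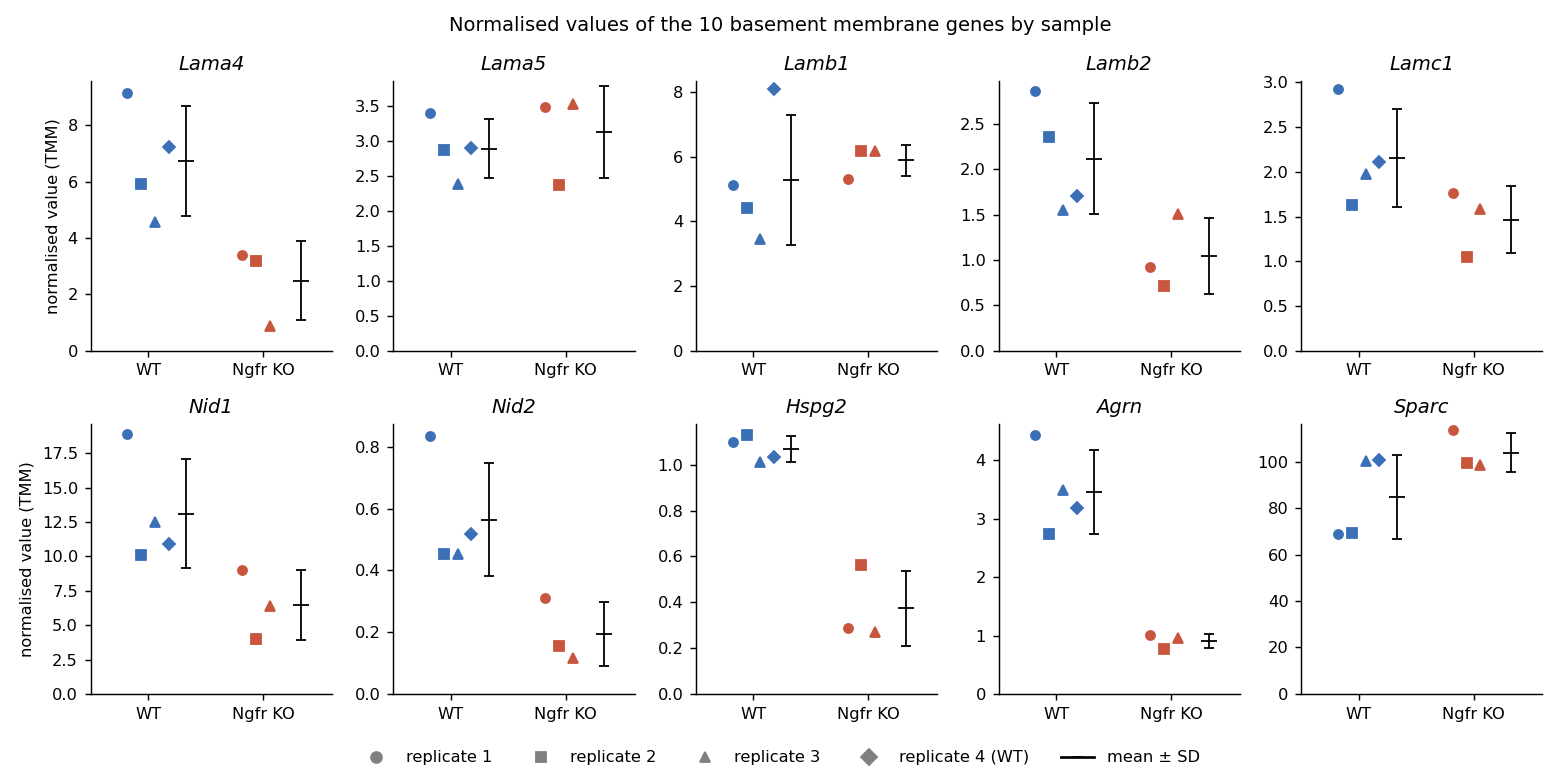
Normalised value (TMM, y axis from 0, a separate scale for each gene) of the 10 genes in 4 WT and 3 Ngfr KO samples, with symbols for replicates and bars for mean ± SD. The groups are apart in Lama4, Lamb2, Nid1, Nid2, Hspg2 and Agrn and overlap in the other 4 genes.

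The sequences before the start sites of Agrn and Lama5 are shown because these 2 long transcripts differed in how they changed: Agrn was called lower and Lama5 was not. Each is the 250 bases before the RefSeq start (GRCm38.p6), read 5′ to 3′ on the minus strand. The windows are chr4:156197489-156197738 for Agrn and chr2:180225860-180226109 for Lama5, next to the annotated 5′ end of each gene and outside its exons. Capitals mark the GC box (GGGCGG or CCGCCC, a motif of Sp1 and Krüppel-like factors), the CACCC element (CACCC or GGGTG) and TATAAA or TTTATA, on both strands, where matches may overlap by 1 or more bases.
Agrn: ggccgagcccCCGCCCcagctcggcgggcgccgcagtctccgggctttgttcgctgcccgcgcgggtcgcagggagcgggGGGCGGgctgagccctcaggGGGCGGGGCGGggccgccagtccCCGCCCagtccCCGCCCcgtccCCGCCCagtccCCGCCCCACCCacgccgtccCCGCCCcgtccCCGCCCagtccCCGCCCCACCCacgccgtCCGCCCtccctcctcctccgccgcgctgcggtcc
Lama5: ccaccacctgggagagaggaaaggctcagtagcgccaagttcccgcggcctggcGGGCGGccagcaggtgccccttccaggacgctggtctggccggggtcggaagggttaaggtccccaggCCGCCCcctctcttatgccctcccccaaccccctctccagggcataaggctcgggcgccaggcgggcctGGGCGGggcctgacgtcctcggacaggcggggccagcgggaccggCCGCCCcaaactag
The Agrn window held 12 GC boxes and the Lama5 window 4. Among members whose windows include exon bases and are not printed, the Hspg2 window held 5, the Lamb1 window 2, the Nid1 window 1 and the Lamb2 and Sparc windows 0. Of all 32851 promoter windows of that length, 32.7% held at least 1 GC box. CACCC elements numbered 2 in Agrn and 0 in Lama5, and 52.0% of all windows held at least 1. The TATA letters were absent from both windows and present in 12.4% of all windows. A match is a description of letters, not of a bound site. GC boxes were present both in members that were called lower and in Lama5 and Lamb1, which were not. RefSeq windows were found for 7 of the 10 genes, and Lama4, Lamc1 and Nid2 were not matched. A further Agrn start inside the gene is not described here.

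Among the laminin α chains, Lama4 was called lower in Ngfr KO and Lama5 was not called. Lama4 encodes α4, the chain of vessel wall laminins also made by other mesenchymal cells, and lies on chromosome 10 from 38965515 to 39110188 (GRCm38, plus strand). Its value was 9.15, 5.91, 4.58 and 7.23 in WT replicates 1 to 4 and 3.40, 3.17 and 0.861 in Ngfr KO replicates 1 to 3. Every Ngfr KO sample was below every WT sample, and Ngfr KO replicate 3 stood apart at the bottom, with 215 reads. WT averaged 6.72 ± 1.95 (SD, n = 4) and Ngfr KO 2.48 ± 1.41 (SD, n = 3). On the log2 scale limma put the difference at -1.22 (SE 0.29, adjusted p = 0.00814). With edgeR it was -1.35 and not called (adjusted p = 0.0622), nor was it called by limma without a filter (adjusted p = 0.0580).

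Lama5 encodes α5, a long chain of vascular and epithelial basement membranes (chromosome 2, 180176373 to 180225859, minus strand). Its WT values were 3.41, 2.88, 2.39 and 2.90, and its Ngfr KO values were 3.50, 2.38 and 3.53. The Ngfr KO samples spanned the WT range. The limma log2 difference was 0.08, with a 95% interval from -0.28 to 0.44 (adjusted p = 0.724). With the length trend removed, limma gave 0.45 (SE 0.13, adjusted p = 0.0283), so the call for Lama5 rests on how transcript length is treated.

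Of the β chains, Lamb2 was called lower and Lamb1 was not called. Lamb1 encodes β1, the most widely used β chain (chromosome 12, 31265234 to 31329644, plus strand). Lamb1 values were 5.14, 4.42, 3.45 and 8.10 in WT and 5.32, 6.17 and 6.17 in Ngfr KO. The Ngfr KO samples lay inside the WT range, which WT replicate 4 set at the top and WT replicate 3 at the bottom. Its limma log2 difference was 0.18, with a 95% interval from -0.29 to 0.66 (adjusted p = 0.532). Lamb2 encodes β2, a chain of mature vessel, kidney and neuromuscular basement membranes (chromosome 9, 108479736 to 108490530, plus strand). Its values were 2.86, 2.36, 1.55 and 1.70 in WT and 0.918, 0.709 and 1.51 in Ngfr KO. The groups were apart, but WT replicate 3 and Ngfr KO replicate 3 nearly met. Limma gave -0.61 on the log2 scale (SE 0.19, adjusted p = 0.0274), and edgeR -0.96, which was not called (adjusted p = 0.0619). The call was also lost with limma without a filter (adjusted p = 0.0940) and without WT replicate 1, WT replicate 2, Ngfr KO replicate 1 or Ngfr KO replicate 2, where the highest limma adjusted p was 0.122.

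Lamc1 encodes γ1, the γ chain of most laminins and the chain that nidogen binds (chromosome 1, 153218922 to 153332786, minus strand). Its values were 2.92, 1.62, 1.98 and 2.11 in WT and 1.76, 1.05 and 1.59 in Ngfr KO. WT replicate 2 lay below Ngfr KO replicate 1, so the groups overlapped. Limma gave -0.35 on the log2 scale, with a 95% interval from -0.73 to 0.03 (adjusted p = 0.131).

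Both nidogens had separate groups. Nid1 encodes nidogen-1, the main linker between laminin and collagen IV (chromosome 13, 13437551 to 13512269, plus strand). Its values were 18.9, 10.1, 12.5 and 10.9 in WT and 9.04, 3.99 and 6.39 in Ngfr KO. WT replicate 1 was the highest sample, and Ngfr KO replicate 1 came close to the lowest WT sample. WT averaged 13.1 ± 3.97 (SD, n = 4) and Ngfr KO 6.47 ± 2.53 (SD, n = 3), and limma put the difference at -0.93 log2 units (SE 0.26, adjusted p = 0.0160). Nid1 was not called with edgeR (adjusted p = 0.0570) or by limma without a filter (adjusted p = 0.0723) or without Ngfr KO replicate 2 (adjusted p = 0.0806).

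Nid2 encodes nidogen-2, the second linker (chromosome 14, 19751265 to 19811787, plus strand). WT replicates 1 to 4 held 215, 121, 104 and 136 of its reads and Ngfr KO replicates 1 to 3 held 86, 46 and 29, for values of 0.837, 0.453, 0.452 and 0.519 against 0.312, 0.156 and 0.116. No sample reached the filter, and every Ngfr KO sample was below every WT sample. By exact permutation of the 7 samples (two-sided), p was 0.0286, the smallest that 35 splits allow, and was not adjusted over genes. The same exact permutation test gave p = 0.0286 for Agrn and Hspg2 and 0.0571 for Lama4, Lamb2 and Nid1. For Nid2, edgeR gave -1.46 on the log2 scale (SE 0.50, adjusted p = 0.0739), which was not called. Nor was Nid2 called by limma without a filter (adjusted p = 0.0747). Exons of Rtraf, on the opposite strand, cover 8.45% of the exonic bases of Nid2, and reads of the 2 genes there cannot be told apart without strand. The antisense gene Gm48682 covers 2.06% of those of Nid1.

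The call of the proteoglycan gene Agrn was kept in all 15 alternatives that tested it, and that of Hspg2 in 14 of 15. Calls were kept in 13 of 15 for Lama4, 13 of 16 for Nid1 and 8 of 15 for Lamb2. Agrn encodes agrin, a laminin-binding heparan sulfate proteoglycan known for clustering acetylcholine receptors at the neuromuscular junction (chromosome 4, 156165290 to 156197488, minus strand). Its values were 4.44, 2.74, 3.49 and 3.19 in WT and 1.00, 0.770 and 0.961 in Ngfr KO, from 732 to 1140 and from 227 to 276 reads. The 3 Ngfr KO samples lay close together and far below the lowest WT sample. Ngfr KO averaged 0.911 ± 0.124 (SD, n = 3), which was 73.7% below the WT mean of 3.46 ± 0.72 (SD, n = 4). Limma gave -1.21 on the log2 scale (SE 0.16, adjusted p = 0.000495) and edgeR, which adds no pseudocount of 1, gave -1.86 (SE 0.23, adjusted p = 0.00310). Agrn was called lower in all 15 alternatives that tested it.

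Hspg2 encodes perlecan, a very large proteoglycan of vascular basement membranes (chromosome 4, 137468769 to 137570630, plus strand). Its values were 1.10, 1.13, 1.01 and 1.03 in WT and 0.287, 0.563 and 0.268 in Ngfr KO. WT samples were nearly equal, at 1.07 ± 0.05 (SD, n = 4), and all lay above the Ngfr KO samples, at 0.373 ± 0.165 (SD, n = 3). Limma put the log2 difference at -0.60 (SE 0.14, adjusted p = 0.00705) and edgeR at -1.43 (adjusted p = 0.0258). Its longest transcript, 14.2 kb, is the longest of the 10, and with the length trend removed limma gave only -0.19 (adjusted p = 0.360).

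Sparc was by far the most abundant member and was not lower. It encodes a collagen-binding matricellular protein made by many stromal and endothelial cells (chromosome 11, 55394500 to 55423183, minus strand). Its values were 69.0, 69.3, 100.5 and 100.6 in WT and 113.9, 99.4 and 98.7 in Ngfr KO. WT replicates 3 and 4 lay within the Ngfr KO range and WT replicates 1 and 2 below it. The limma difference was 0.31 log2 units, with a 95% interval from -0.18 to 0.80 (adjusted p = 0.297).

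**Figure D2:**
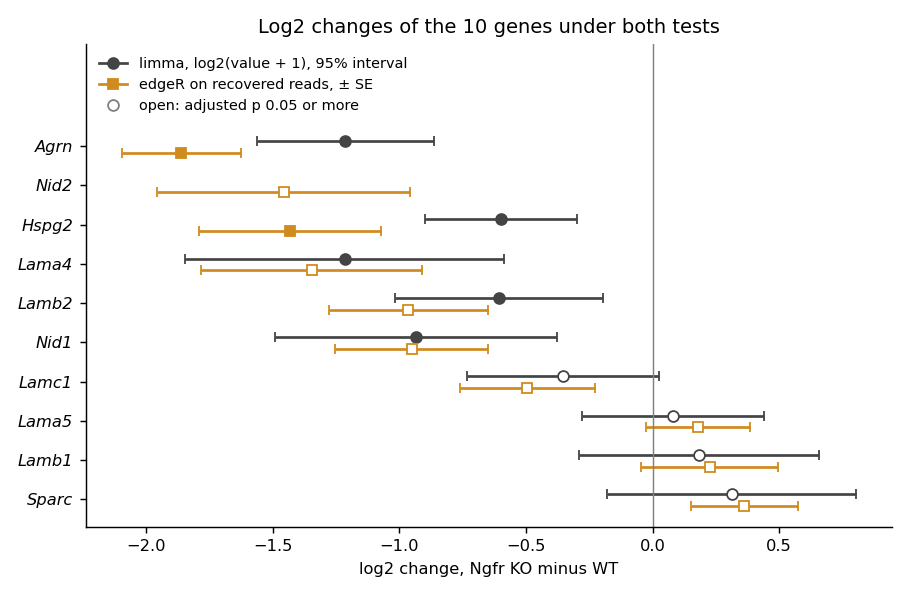
Log2 change of each gene, Ngfr KO minus WT, from limma on log2(value + 1) with 95% intervals (circles) and from edgeR on recovered reads ± SE (squares), where filled symbols had an adjusted p under 0.05. Agrn and Hspg2 are filled under both tests, and Lamc1, Lama5, Lamb1 and Sparc are open under both.

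Within each group, some samples were high or low for several members. WT replicate 1 was the highest WT sample for 7 of the 10 genes, and WT replicate 3 the lowest for 6. In Ngfr KO, replicate 1 was the highest for 6 genes and replicate 2 the lowest for 5. Sparc differed, with WT replicate 1 the lowest of all 7 samples.

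Ratios between related members were compared within each sample, where the scaling factor cancels. The log2 ratio of Lama4 to Lama5 was 1.42, 1.04, 0.94 and 1.32 in WT and -0.04, 0.42 and -2.04 in Ngfr KO. All Ngfr KO samples were below all WT samples, with Ngfr KO replicate 3 far below the rest. The difference of means was -1.73 (two-sided exact permutation p = 0.0286, and 0.114 adjusted over the 4 ratios compared). Without Ngfr KO replicate 3 it was -0.99. The log2 ratio of Lamb1 to Lamb2 was 0.84, 0.91, 1.15 and 2.25 in WT and 2.53, 3.12 and 2.03 in Ngfr KO. Only WT replicate 4 reached into the Ngfr KO range. The difference was 1.27 (exact permutation p = 0.0857, adjusted p = 0.114). For Nid1 to Nid2 the difference was 0.57 (exact permutation p = 0.0857, adjusted p = 0.114), and for Hspg2 to Agrn it was 0.31 (exact permutation p = 0.629, adjusted p = 0.629), with overlapping groups in both. Without Ngfr KO replicate 3 the Nid1 to Nid2 difference was 0.23, and without Ngfr KO replicate 2 the Hspg2 to Agrn difference turned to -0.15. None of the 4 ratios passed after adjustment, and 1 ratio alone at the smallest p of 0.0286 could not get below 0.114.

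Levels of different genes were set side by side only per kilobase of the longest coding transcript, which assumes even coverage along it. On that scale Lama4 made up 80.9% ± 2.4 of Lama4 plus Lama5 across 4 WT samples (SD) and 55.9% ± 21.4 across 3 Ngfr KO samples (SD). The Ngfr KO samples were at 64.7%, 71.5% and 31.5%, so that in Ngfr KO replicate 3 Lama5 exceeded Lama4. Lamb1 made up 69.7% ± 8.6 of Lamb1 plus Lamb2 in WT and 84.8% ± 4.8 in Ngfr KO. Nid1 made up 94.9% ± 0.6 of both nidogens in WT and 96.3% ± 1.3 in Ngfr KO.

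**Figure D3:**
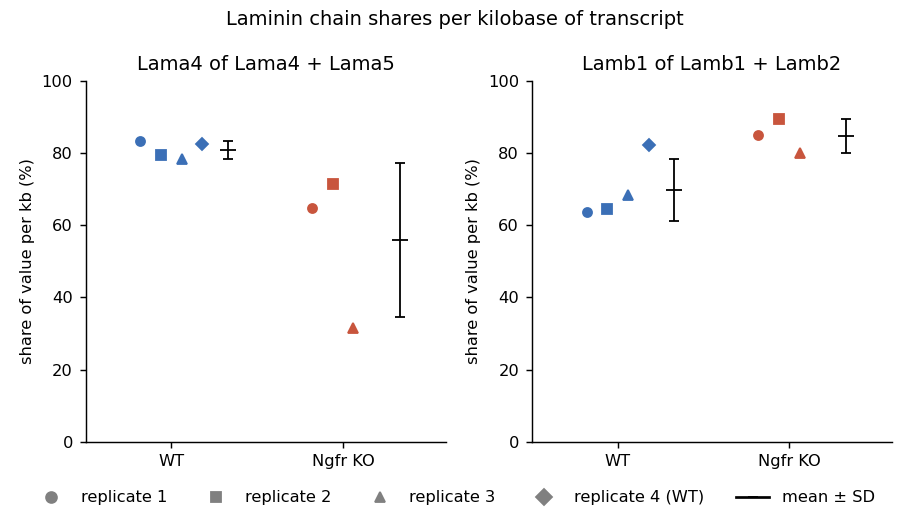
Share of Lama4 in Lama4 plus Lama5 (left) and of Lamb1 in Lamb1 plus Lamb2 (right), from values per kilobase, in percent on axes from 0 to 100, by sample with mean ± SD. The Lama4 share is 71.5% or less in the 3 Ngfr KO samples and 78.3% or more in the 4 WT samples, and the Lamb1 groups overlap.

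In WT, the per-kilobase order ran from Sparc (36.9 ± 7.9, SD, n = 4) through Nid1 (2.15 ± 0.65), Lama4 (1.11 ± 0.32), Lamb1 (0.912 ± 0.347), Agrn (0.477 ± 0.099), Lamb2 (0.376 ± 0.108), Lamc1 (0.283 ± 0.072) and Lama5 (0.254 ± 0.037) to Nid2 (0.116 ± 0.038) and Hspg2 (0.0753 ± 0.0039). Sparc was apart from Nid1, and Nid1 from Lama4. From Lama4 down to Lama5 each gene overlapped its neighbour in the order, so their sequence is not resolved. Nid2 and Hspg2 were apart from the genes above them. In Ngfr KO, Lamb1 (1.02 ± 0.09 per kilobase, SD, n = 3) stood above Lama4 (0.410 ± 0.232), and Agrn (0.125 ± 0.017) stood in the eighth place instead of the fifth. Its samples overlapped those of its neighbours Lamb1 and Lamb2 in WT and Lamb2 in Ngfr KO, so neither place is resolved. Among 15306 protein-coding genes ranked per kilobase, Sparc lay at the 98.7th percentile or above in all 7 samples and Hspg2 at the 30.7th or below.

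For each tested member, the gene outside the family whose centred log2 values over the 7 samples lay nearest was found among 8317 genes, by root mean square difference. Lama4 was nearest to Gimap4 (0.22 on the log2 scale), Nid1 to Reep1 (0.11), Agrn to Flrt2 (0.09), Lamb2 to Ppp3cb (0.05) and Hspg2 to Grrp1 (0.04). Among the members that were not called, Lama5 was nearest to Herc6 (0.06), Lamb1 to Hspa13 (0.13), Lamc1 to Ash1l (0.08) and Sparc to Dclre1b (0.07). The difference was largest for Lama4, in which Ngfr KO replicate 3 was low. It was not scaled to each member's own spread, which was also largest in Lama4. The SD over the 7 samples was 0.81 log2 units in Lama4 and 0.18 to 0.67 in the other tested members.

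Further basement membrane genes were counted in 5 lists. Over all genes tested, limma called 15.8% lower and 18.3% higher and edgeR 6.55% and 8.67%. Col4a5, Loxl2, Hs3st1, Ntn4, Tinagl1 and Egflam passed the limma filter only through WT samples and Ddr1 only through Ngfr KO samples. Hmcn1 and Plod1 reached a value of 1 in all 4 WT samples but in only 1 and 2 Ngfr KO samples. P4ha2 did so in all 3 Ngfr KO samples but in only 1 WT sample. Counts that hold any of these genes show no more than the genes' own values.

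Of 8 basement membrane collagens, 3 were tested, with a median log2 change of -0.46. Col4a1 and Col4a2, the chains of the main collagen IV network, had log2 changes of -0.46 and -0.16 and were not called (limma adjusted p = 0.0929 and 0.597). Col4a5, a chain of a specialised collagen IV network, was called lower, at 1.26 ± 0.27 (SD, n = 4) in WT and 0.212 ± 0.112 (SD, n = 3) in Ngfr KO. Limma gave -0.89 on the log2 scale (SE 0.15, adjusted p = 0.00145) and edgeR, which adds no pseudocount of 1, gave -2.48. No Ngfr KO sample of Col4a5 reached a value of 1. edgeR kept 7 of the 8 and called 3 lower, Col4a5, Col4a6 and Col18a1.

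Of 18 other glycoproteins of the sheet, 7 were tested, 5 were called lower and 0 higher, with a median log2 change of -0.88. Ntn4, Tinagl1 and Egflam passed the filter only through WT samples, so this median is not comparable with the 0.02 over all genes tested. edgeR kept 14 and called 6 lower and 1 higher, Smoc1, which had 57 to 162 reads in the WT samples and 226 to 357 in the Ngfr KO samples (adjusted p = 0.0316). Mmrn2, an endothelial matrix protein, averaged 8.99 ± 1.93 in the WT samples (SD, n = 4) and 2.18 ± 0.65 in the Ngfr KO samples (SD, n = 3); limma gave -1.65 on the log2 scale (SE 0.20, adjusted p = 0.000320). Hmcn1 (hemicentin-1), Ntn4 (netrin-4, which binds laminin γ chains) and Tinagl1 had limma log2 changes of -1.52, -1.17 and -0.69. With edgeR, which adds no pseudocount of 1, the changes of these genes were -2.38, -3.28 and -1.23. Without a filter limma called neither Ntn4, Tinagl1 nor Egflam (adjusted p = 0.0929, 0.0579 and 0.126). Ntn4 groups overlapped, edgeR did not call it (adjusted p = 0.0694), and limma did not without Ngfr KO replicate 2 or Ngfr KO replicate 3 (highest adjusted p 0.0570).

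Of 10 genes of collagen folding and cross-linking, 9 were tested, 2 were called lower and 3 higher, with a median log2 change of 0.27. Loxl2, a lysyl oxidase that cross-links collagen IV, and Plod1, a lysyl hydroxylase, had log2 changes of -0.72 and -0.71. The 3 genes called higher encode subunits of collagen prolyl 4-hydroxylase: P4ha2 (log2 change 1.10, limma adjusted p = 0.00224), P4ha1 (0.74) and P4hb (0.68). Limma without a filter did not call P4hb (adjusted p = 0.0537).

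Of 19 receptors, 11 were tested, with 2 called lower, 2 higher and a median of 0.11. The collagen-binding integrin genes Itga1 (log2 change -1.47) and Itga2 (-0.69) were lower, and the syndecan Sdc2 (1.37) and the collagen receptor Ddr1 (0.61) were higher. Itga2 was not called by limma without a filter (adjusted p = 0.0536), without Ngfr KO replicate 1 (0.0595) or with the length trend removed (0.145). Laminin receptor genes that were tested and not called included Itga6 (log2 change -0.05, 95% interval -0.39 to 0.29) and Itgb1 (0.19, -0.18 to 0.56). Itgb4 (0.11, -0.28 to 0.50) and Dag1, dystroglycan (-0.06, -0.51 to 0.39), were not called either. Itga3 and Bcam, also in the list, were below the filter. Their edgeR log2 changes were -1.31 and -0.42, and neither was called (edgeR adjusted p = 0.207 and 0.603). Of 16 genes of heparan sulfate synthesis, 6 were tested, with a median of -0.06, 1 called lower (Hs3st1, log2 change -1.19) and 1 higher (Extl2, 0.65).

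**Figure D4:**
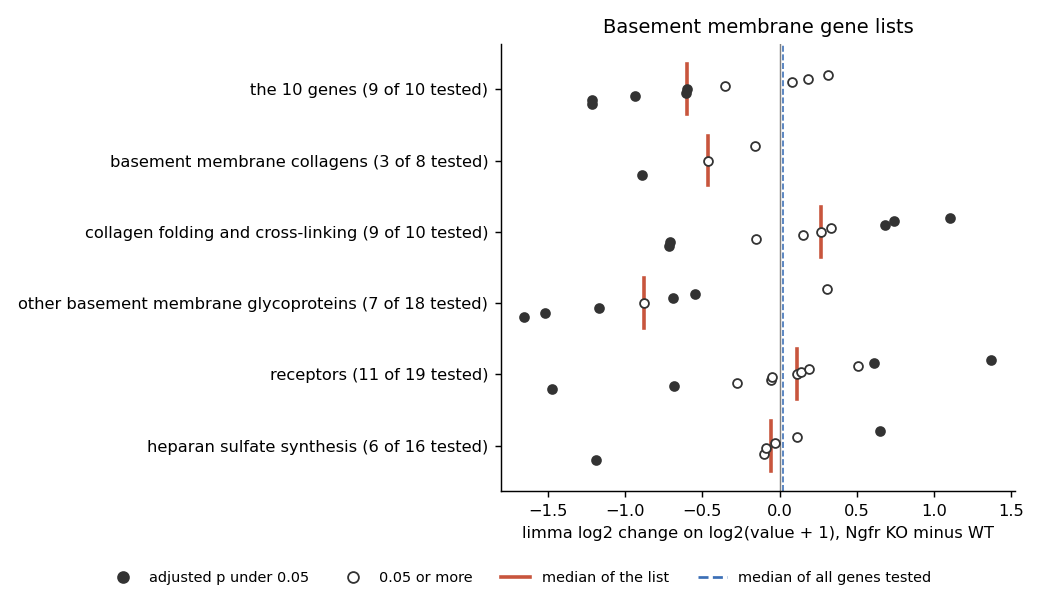
Limma log2 change (Ngfr KO minus WT, on log2(value + 1)) of each tested gene of the 10 described and of the 5 further lists, filled where the adjusted p was under 0.05, with the list median (bar) and the median of all genes tested (dashed line). The other glycoproteins reach from -1.65 to 0.31, and the receptor list has calls on both sides of 0.

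Endothelial cells are a main source of laminins, nidogens and perlecan in vessel walls, and their markers moved with the genotype. All 14 blood endothelial markers were detected, 13 were tested and all 13 were called lower, with a median log2 change of -1.37. Their summed value lay between 151 and 197 in the WT samples and between 36.9 and 66.9 in the Ngfr KO samples. Of 6 lymphatic endothelial markers tested, 4 were called lower, with sums from 77.9 up to 132 in the WT samples and from 25.5 up to 57.7 in the Ngfr KO samples. Both sums were highest in WT replicate 1 and lowest in Ngfr KO replicate 3. WT replicate 1 was also the highest WT sample for 7 of the 10 genes. Lama4, Nid2 and Hspg2 were also lowest in Ngfr KO replicate 3, and Agrn, Nid1, Lamb2, Lamc1 and Lama5 in Ngfr KO replicate 2. In Ngfr KO replicates 1 to 3 the blood endothelial sums were 62.3, 66.9 and 36.9, and the lymphatic sums 57.7, 42.4 and 25.5. Pecam1, an endothelial adhesion molecule, had a log2 change of -1.46, and no marker of either list was at 0 reads in any sample. The part of these cells in the lower values of the members was not tested, and in pooled sorted cells fewer cells of a type and less RNA per cell cannot be told apart.

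Other stromal markers went the other way or overlapped. The sum of the fibroblastic reticular cell markers ranged from 91.0 up to 219 in WT and from 254 up to 362 in Ngfr KO. Of 7 tested genes, 4 were called higher and 0 lower. Dcn was the largest part of each Ngfr KO sum, at 151 to 248. Pdpn and Ccl21a are also on the lymphatic list, and neither was called. The sum of the FDC markers ranged from 1856 up to 5131 and from 7909 up to 10433. Sums of pericyte and smooth muscle markers overlapped, at 21.05 to 55.8 (WT) and 42.9 to 71.6 (Ngfr KO). Of their 4 tested genes, however, 2 were called higher and 0 lower. Sums also overlapped for B cells (16.6 to 28.4 and 10.98 to 44.4) and T cells (2.29 to 9.08 and 2.89 to 8.53). The same held for myeloid cells (24.2 to 84.9 and 31.5 to 54.4) and Schwann cells (0.739 to 2.55 and 2.42 to 3.66). The B cell, myeloid and Schwann cell lists each had 1 gene called higher and 0 lower, and the T cell list had 0 called.

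**Figure D5:**
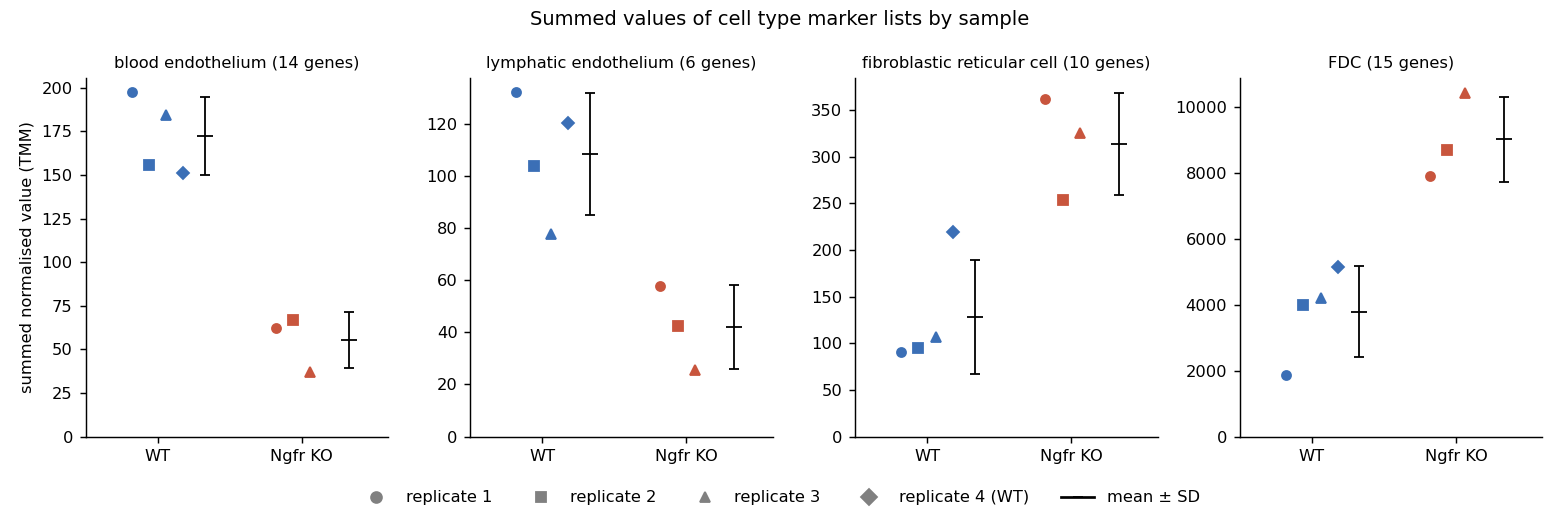
Summed normalised value (TMM, y axis from 0) of the marker lists of blood endothelium, lymphatic endothelium, fibroblastic reticular cells and FDCs in each sample, with mean ± SD. The endothelial sums are lower in all 3 Ngfr KO samples than in all 4 WT samples, and the other 2 sums are higher.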

How the data were processed

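The deposited file holds normalised signal for each gene in each sample, and its name calls these values TMM (trimmed mean of M values), a scaling that the authors applied before deposit. Build mm10 and bcl2fastq 2.20.0.422 are named in the submitters' processing notes, and the aligner, counter and annotation are not given in the sources used here. SMART-Seq v4 cDNA and Nextera XT libraries are named in the labels' protocols. In the deposited values, 100% were whole multiples (within 0.05) of 1 step per sample, which gave the reads back. The lowest sum of reads per gene was 3. Intervals cover neither amplification nor pooling.

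Groups and replicate numbers came from the sample titles, and nothing but the design text says that the samples are independent. limma 3.58.1 (R 4.3.3, eBayes with trend, log2(value + 1), no covariates) was fitted to genes whose value reached 1 in 3 or more samples, with Benjamini-Hochberg adjustment over all 8326 genes, and 0.05 as threshold. edgeR 4.0.16 tested 16751 genes on the recovered reads. The fits were tested on simulated data.

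Coordinates and transcript lengths came from GENCODE M21 (GRCm38), matched by identifier for 21118 of 21176 genes. Alternatives were other pseudocounts, filters and scalings, edgeR, a replicate block, leaving out each sample and, chosen after seeing the data, removal of the trend with transcript length. Members and lists were chosen with earlier results of these data known. Named genes are the members, up to 4 called genes with the largest change per list, Ngfr and each member's nearest gene. P4hb, Pecam1, Col4a1, Col4a2, Col4a6, Col18a1, Npnt, Smoc1, Egflam, Itga6, Itgb1, Itgb4 and Dag1 were added after their values were seen. So were Dcn, Pdpn, Ccl21a, Itga3 and Bcam. Listed genes without a row in the table are not analysed here, and 1 list of the design is not reported here.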

Additional observations from a re-analysis of the deposited data

Results flagged for a closer look

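In 43 results, the WT sample farthest from the other 3 was compared with the range of the 4 WT samples by Dixon's criterion. It was exceeded in 3, where chance gives about 1 in 20. The summed value of the fibroblastic reticular cell markers was 219 in WT replicate 4, against 91.0 to 106 in the other WT samples. The summed value of the myeloid markers was 24.2 in WT replicate 4, against 75.1 to 84.9. Plod1 had a value of 3.35 in WT replicate 1, against 2.10 to 2.22. None of these 3 concerns the 10 genes themselves, and WT replicate 4 was the sample with the highest Lamb1.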

How the results depend on the processing

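The 9 tested members kept their sign in every alternative run. Agrn was called in all 15 that tested it, where adjusted p (limma, edgeR) lay between 0.000604 and 0.0107. The members called lower, 5 as reported, numbered 2 without a filter (Agrn and Hspg2), 2 with edgeR on recovered reads, 1 with the stricter filter of at least 10 (which tested 2 members, Nid1 and Sparc), 3 with the transcript length trend removed, and 3 to 5 when 1 sample was left out (3 without Ngfr KO replicate 2). Members called higher numbered 1 (Lama5) with the length trend removed and 0 otherwise. Genes called over the whole table, 2844 as reported, numbered 535 with the stricter filter and 1614 to 3006 when 1 sample was left out (1614 without Ngfr KO replicate 2, 1803 without Ngfr KO replicate 1 and 1870 without WT replicate 1). In the 5 further lists, 11 genes were called lower and 6 higher; the stricter filter gave 0 and 1, and leaving out 1 sample gave 7 to 12 lower (7 without WT replicate 1 or WT replicate 3) and 4 to 7 higher (4 without Ngfr KO replicate 1 or 2). The ratio of Nid1 to Nid2 changed from 0.57 to -0.55 with a pseudocount of 1, which is larger than any Nid2 value. Without 1 sample, the ratio tests cannot reach 0.05. Deviations of same-numbered samples correlated across genes at 0.30, -0.06 and -0.01 for replicates 1 to 3. Those of differently numbered WT and Ngfr KO samples correlated at -0.20 to 0.11, so replicate 1 gave the highest value. Whether the replicate numbers pair the samples was not tested. With the replicate block the same 5 members were called lower and 2717 genes were called in all. The share of calls that were higher was 53.7% as reported, 49.0% to 59.6% under the other scalings (quantile, median ratio) and 67.1% with the stricter filter. The cause of these changes was not tested. Nid2 had 29 to 215 reads, and the part of depth in its missed call was not tested.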

Other observations

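Among basement membrane genes below the filter, Col4a6 and Npnt had few or no reads in the Ngfr KO libraries and Col18a1 had fewer than in WT. They were chosen after their values were seen. Col4a6, the neighbour and partner chain of Col4a5, had 65, 85, 59 and 72 reads in the 4 WT samples and 0, 1 and 0 in the 3 Ngfr KO samples (edgeR adjusted p = 0.00475). Npnt, the gene of the integrin ligand nephronectin, had 152, 130, 133 and 79 reads in the WT samples and 9, 6 and 0 in the Ngfr KO samples (edgeR adjusted p = 0.0105). Col18a1, the gene of the proteoglycan collagen XVIII, had 135 to 257 reads in WT and 52 to 68 in Ngfr KO (edgeR adjusted p = 0.0184).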
